A study of Mus musculus with 8 samples.

Results

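The enzymes that build, process and break down the ceramides and other lipids of the epidermal barrier were examined in keratinocyte-labelled epidermis of imiquimod-treated mice. The set is defined by name and holds 29 genes of ceramide synthesis, acylceramide formation, lipoxygenase oxidation and acid lipolysis. All 29 are among the 23171 genes of the deposited count table. By their labels, 4 libraries are from mice with the genotype Hnrnp-u knockout, made in the epidermis (cKO), and 4 from contrast mice titled WT; Hnrnpu encodes an RNA-binding nuclear protein. All 8 mice had received imiquimod, which activates Toll-like receptors and is used to provoke a psoriasis-like skin inflammation, and all 8 libraries carry the same batch label. No source used here gives the strain, the age, the promoter driving the deletion, the dose of imiquimod or the skin site. Untreated skin was not analysed here.

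The outermost epidermis keeps water in through stacked lipid lamellae of ceramides, cholesterol and free fatty acids, laid down between the cornified cells. Ceramide synthesis starts with the joining of serine and a fatty acyl-CoA, passes through N-acylation of the sphingoid base and desaturation, and in keratinocytes uses fatty acids lengthened far beyond those of other tissues. Some of these are hydroxylated at the far end and esterified with linoleate to give acylceramide, which lipoxygenases then oxidise before it is bound to the protein envelope. Inherited loss of many of these genes causes ichthyosis in humans. Sebaceous glands, which lie in the skin beside the follicles, use elongases and hydroxylases of the same families for their own lipids.

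Each library held 37158621 to 38865722 counts. Hnrnpu itself stood at 189.8 to 373 CPM in cKO and 424 to 455 CPM in WT, where CPM are counts scaled to the library size with TMM factors. The genotypes did not overlap, and the log2 fold change (cKO over WT) was -0.51 ± 0.19 (SE, edgeR adjusted p = 0.191), so the libraries labelled knockout held 70.3% of the WT level and the difference did not pass the test. The log2 fold change was -0.33 without cKO replicate 1, the library with the lowest level. The epidermal label was met by its markers, with Krt10 at 17493 to 33451 CPM in cKO and 18984 to 32428 CPM in WT and Krt5 at 6643 to 10145 CPM in cKO and 6693 to 10937 CPM in WT. Of the 10 granular and cornified markers, Krt2, a keratin of upper epidermis, was close to 0, with at most 1.23 CPM. The summed level of 5 fibroblast markers was 1.09 to 3.73 CPM in cKO and 1.02 to 9.92 CPM in WT, that of 3 endothelial markers 0.672 to 1.20 CPM in cKO and 1.23 to 1.56 CPM in WT, that of 3 muscle markers 0.0965 to 0.452 CPM in cKO and 0.167 to 0.442 CPM in WT, and that of 2 adipocyte markers 0.338 to 1.01 CPM in cKO and 0.0833 to 1.18 CPM in WT. The summed level of 6 leukocyte markers was 24.6 to 53.3 CPM in cKO and 36.7 to 52.4 CPM in WT.

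None of the 29 genes passed the test between cKO and WT, whose threshold was 0.05 on edgeR p-values adjusted across every gene tested. The test called 1.32% of the 14004 genes that passed the low-count filter (0.671% as higher and 0.65% as lower in cKO), and all 29 barrier lipid genes passed that filter. At an unadjusted p below 0.05 there were 7 of 29 genes (24.1%), against 18.6% of all tested genes. In 2 of the 29 (6.90%), Sptlc2 and Degs1, all cKO libraries lay below all WT libraries, against 5.82% of all tested genes. In none did all lie above, against 5.26%. In either direction the share was 6.90%, below the 11.1% of all tested genes. Of the log2 fold changes (cKO over WT), 13 were positive and 16 negative, with a median of -0.032, against a median of 0.011 over all tested genes. The 95% interval lay within a 2-fold change either way for 23 of the 29, against 69.1% of all tested genes. A change inside its interval therefore remains possible for each gene. DESeq2 called 5 of the 29 (17.2%), Elovl6, Fa2h and Cers4 as higher and Sptlc2 and Degs1 as lower, where it called 8.63% of all tested genes. For Elovl7, Smpd1, Acer1, Degs2, Pnpla1, Sptlc3, Ugcg and Lipn the fold change took the other sign without 1 or another of the libraries (several in turn for Degs2, Pnpla1 and Elovl7), so no direction is given for these 8. Exons of Lipm, Degs2, Elovl1, Abhd5, Pnpla1, Cers4, Acer1 and Elovl6 overlap those of a gene on the opposite strand, by 34 to 1219 bases in the GENCODE M21 annotation. The strand setting of the counting is not known here, so reads of such a pair could not be told apart.

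**Figure D1:**
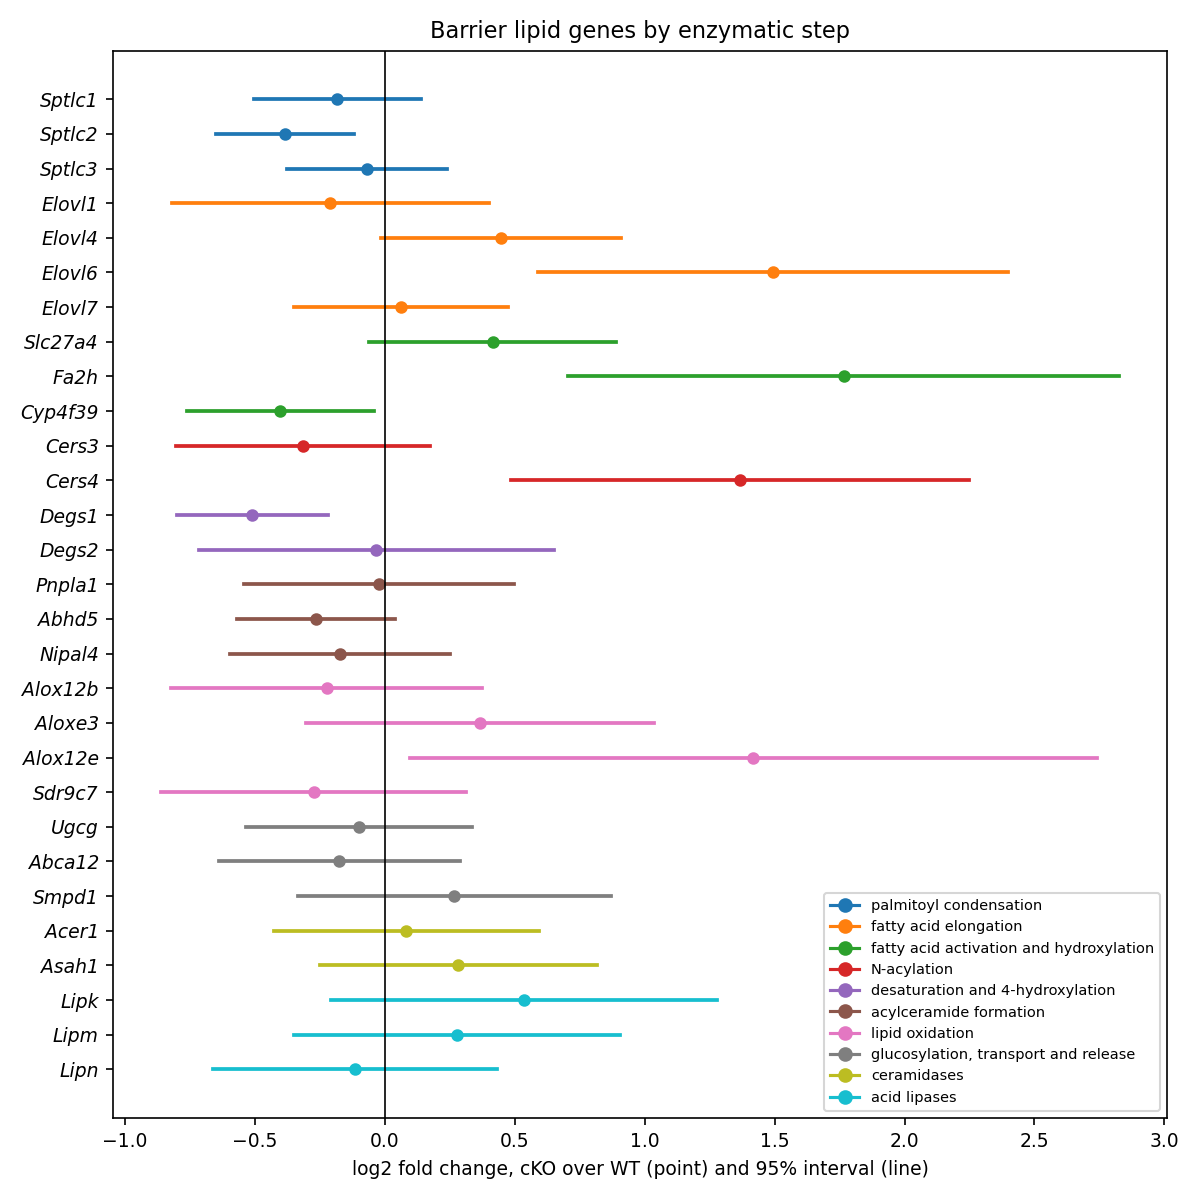
Log2 fold change (cKO over WT, x axis) of each of the 29 genes (y axis), with points for the edgeR estimate, lines for its 95% interval and colours for the enzymatic step. Fa2h, Elovl6, Alox12e and Cers4 have the highest estimates, with wide intervals that lie above 0. Degs1, Cyp4f39 and Sptlc2 have intervals below 0, and none of the 29 passed the adjusted threshold.

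Levels ran over a wide range between genes. On the per-length FPKM scale of the authors, the highest of the 29 in both genotypes was Elovl4, at 604 FPKM in cKO and 429 FPKM in WT, followed by Degs1 at 203 FPKM in cKO and 278 FPKM in WT. The lowest in cKO was Aloxe3 at 11.1 FPKM in cKO and 8.31 FPKM in WT. In WT the lowest was Cers4, at 7.89 FPKM, against 21.2 FPKM in cKO. Elovl6 ranked 3 of 29 in cKO and 19 in WT, and Fa2h ranked 6 in cKO and 21 in WT, which were the widest shifts in rank.

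The entry step of the pathway is serine palmitoyltransferase, in which the shared subunit Sptlc1 pairs with Sptlc2 or Sptlc3. Sptlc2 stood at 104, 96.8, 82.6 and 102 CPM in cKO replicates 1 to 4, against 108, 117, 137 and 140.4 CPM in WT replicates 1 to 4. The highest cKO library was below the lowest WT library. The log2 fold change was -0.38 ± 0.12 (SE, edgeR adjusted p = 0.13), that is 76.6% of the WT level. The exact permutation p of 0.0286 is the smallest that 4 libraries against 4 can give. It only restates the lack of overlap. Sptlc1 stood at 166, 212, 155 and 129.8 CPM in cKO replicates 1 to 4, against 177, 183, 203 and 189 CPM in WT replicates 1 to 4. Here cKO replicate 2 was above every WT library and the other cKO libraries were below them all (-0.18 ± 0.14 (SE) as log2 fold change, edgeR adjusted p = 0.531). Sptlc3, the subunit associated with a wider range of chain lengths, stood at 81.5 ± 13.0 CPM in the cKO libraries, against 85.5 ± 11.4 CPM in the WT libraries (SD, n = 4 each), and the genotypes overlapped (-0.069 ± 0.14 (SE) as log2 fold change, edgeR adjusted p = 0.837). In these bulk libraries, fewer cells of a kind and less RNA per cell cannot be told apart.

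The promoter of Sptlc2 held the most motif matches of the windows shown here. It is the RefSeq window of GRCm38.p6, chr12:87388306-87388605 (minus strand), from 250 bases before to 50 after the listed start. It is printed as the regulatory window of 1 of the 2 genes whose genotypes did not overlap, and capitals mark matches on either strand to the GC box (CCGCCC, 3 matches) and the CCAAT box (CCAAT, 3 matches).
Sptlc2: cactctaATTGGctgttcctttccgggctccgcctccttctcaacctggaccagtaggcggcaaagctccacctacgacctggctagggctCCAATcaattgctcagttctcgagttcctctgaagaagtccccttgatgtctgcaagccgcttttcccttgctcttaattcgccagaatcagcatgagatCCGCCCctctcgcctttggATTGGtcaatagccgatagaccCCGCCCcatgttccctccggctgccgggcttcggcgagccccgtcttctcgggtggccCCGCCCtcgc
A GC box match is held by 35.7% of all 32851 listed promoters and a CCAAT match by 37.4%. Of the 29 genes 25 had a window in the table, and 14 of these 25 (56.0%) held a GC box and 8 (32.0%) a CCAAT box. The 25 hold 1 window per gene, while the 32851 were not reduced in that way, so the shares are counted unlike. The window listed for Degs1 is among the 25. It lies inside the gene in the GENCODE M21 annotation and is not printed. The letters searched also included TATAAA (1 of 25, against 13.6% of all promoters), the AP-1 motif TGANTCA (1 of 25, against 7.81%), the sterol response element TCACNCCAC (0 of 25, against 1.24%), the PPAR-type direct repeat (0 of 25, against 0.381%) and the grainyhead-type motif AACCNGTT (0 of 25, against 2.09%). None of the 7 motifs contains another, and these matches are descriptions of letters only.

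In the desaturation step, Degs1 was the other of the 2 genes without overlap. That share of the 29 (6.90%) is below the 11.1% of all tested genes. Degs1, which introduces the double bond that turns dihydroceramide into ceramide, stood at 381, 433, 314 and 381 CPM in cKO replicates 1 to 4, against 475, 494, 552 and 627 CPM in WT replicates 1 to 4. The genotypes did not overlap, and Degs1 had the smallest p of the 29 genes. Its log2 fold change was -0.51 ± 0.13 (SE, edgeR adjusted p = 0.0802), or 70.2% of the WT level. The exact permutation p of 0.0286 again only restates the lack of overlap. Degs2, which also makes the hydroxylated phytoceramides of epidermis, was far less abundant (14.0 FPKM in cKO and 13.9 FPKM in WT). Degs2 ran from 26.3 to 71.4 CPM in cKO and 36.9 to 72.0 CPM in WT, with a log2 fold change of -0.032 ± 0.30 (SE, edgeR adjusted p = 0.973).

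Among the elongases, Elovl4, which makes the ultra-long chains needed for acylceramide, stood at 1940.3, 2279.8, 2002 and 1073 CPM in cKO replicates 1 to 4, against 1408, 1308, 1404 and 1229 CPM in WT replicates 1 to 4. It was above the WT range in cKO replicates 1 to 3 and below it in cKO replicate 4 (0.45 ± 0.21 (SE) as log2 fold change, edgeR adjusted p = 0.283). Elovl1, which makes very-long-chain fatty acids for ceramides, stood at 359.5 ± 150.1 CPM in the cKO libraries, against 416 ± 96.2 CPM in the WT libraries (SD, n = 4 each). Its cKO replicate 2 was above every other library, cKO replicates 1 and 4 were below every WT library and cKO replicate 3 was near the lowest of them (-0.21 ± 0.27 (SE) as log2 fold change, edgeR adjusted p = 0.732). Elovl7, another elongase of long acyl chains, ran from 272 to 515 CPM in cKO and 317 to 416 CPM in WT, and the genotypes overlapped (0.062 ± 0.18 (SE) as log2 fold change, edgeR adjusted p = 0.895).

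Elovl6, Fa2h and Cers4 had a shared pattern across libraries, described after their values were seen. Elovl6, which lengthens palmitate, stood at 592, 512, 895 and 229.6 CPM in cKO replicates 1 to 4, against 264, 169, 109 and 249 CPM in WT replicates 1 to 4. Fa2h, the fatty acid alpha-hydroxylase, known in mouse skin for its part in sebum lipids, stood at 226, 169, 326 and 70.8 CPM in cKO replicates 1 to 4, against 73.7, 35.7, 34.2 and 89.1 CPM in WT replicates 1 to 4. Cers4, a ceramide synthase known from mice whose loss of it causes hair loss and altered sebum, stood at 156, 136, 273 and 71.0 CPM in cKO replicates 1 to 4, against 80.8, 50.6, 37.05 and 78.3 CPM in WT replicates 1 to 4. In all 3 genes cKO replicates 1, 2 and 3 were above every WT library and cKO replicate 4 lay within the WT range. The log2 fold changes did not pass the threshold, at 1.49 ± 0.40 (SE, edgeR adjusted p = 0.0945) for Elovl6, 1.77 ± 0.47 (SE, edgeR adjusted p = 0.0921) for Fa2h and 1.37 ± 0.39 (SE, edgeR adjusted p = 0.111) for Cers4. The exact permutation p was 0.0857 for each. Without cKO replicate 4, 5 of the 29 genes were called and all were higher, where the fit called 1.5% of 14227 genes and 0.956% as higher. These were Elovl6 (1.76, edgeR adjusted p = 0.0432), Fa2h (2.05, adjusted p = 0.0442), Cers4 (1.62, adjusted p = 0.0494), Elovl4 (0.64, adjusted p = 0.0429) and Slc27a4 (0.61, adjusted p = 0.0381). Each library was left out in turn, and this one lay apart in these same genes, so those calls are not separate evidence.

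Markers of sebocytes moved with these 3 genes. The summed level of 10 sebocyte markers was 2305, 1747, 3206 and 851 CPM in cKO replicates 1 to 4, against 928, 590.1, 491 and 1046 CPM in WT replicates 1 to 4. That sum is mostly Scd1, and in it cKO replicate 4 was inside the WT range, but marker by marker cKO replicate 4 was above every WT library in 6 of the 10 (Cidea, Awat1, Awat2, Dgat2l6, Far2 and Plin5), within the WT range in 3 (Scd1, Elovl3 and Soat1) and below it in 1 (Mc5r). It was the lowest of the cKO libraries in 9 of the 10. Of the 10 markers 9 were tested, all 9 had a positive fold change, and Cidea, a lipid droplet protein gene, was called (1.24 ± 0.24 (SE) as log2 fold change, edgeR adjusted p = 0.044). Scd1, a fatty acid desaturase, ran from 601 to 2396 CPM in cKO and 388 to 786 CPM in WT. None of the 10 was at 0 in every library, and Plin5 was at 0 in 3 WT libraries. The 6 outer root sheath and upper follicle markers all had positive fold changes and summed to 2644 to 3423 CPM in cKO and 1238 to 1856 CPM in WT, with 4 called, and in these cKO replicate 4 was not low. The 5 melanocyte markers summed to 51.2 to 110.1 CPM in cKO and 30.2 to 48.9 CPM in WT. The part of any of these cells in the levels of Elovl6, Fa2h and Cers4 was not tested.

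The RefSeq windows (GRCm38.p6) of Elovl6, chr3:129532136-129532435 (plus strand), and Cers4, chr8:4493155-4493454 (plus strand), are printed because both genes shared this library pattern; Fa2h had no entry. Capitals mark the single GC box match of Cers4, read on the opposite strand as GGGCGG, and no other motif of the search was found in either window.
Elovl6: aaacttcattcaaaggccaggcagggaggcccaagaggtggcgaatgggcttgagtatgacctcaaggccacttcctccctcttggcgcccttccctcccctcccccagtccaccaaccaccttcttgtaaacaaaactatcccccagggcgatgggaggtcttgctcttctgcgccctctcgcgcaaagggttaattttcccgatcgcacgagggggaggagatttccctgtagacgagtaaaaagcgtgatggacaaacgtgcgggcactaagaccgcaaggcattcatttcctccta
Cers4: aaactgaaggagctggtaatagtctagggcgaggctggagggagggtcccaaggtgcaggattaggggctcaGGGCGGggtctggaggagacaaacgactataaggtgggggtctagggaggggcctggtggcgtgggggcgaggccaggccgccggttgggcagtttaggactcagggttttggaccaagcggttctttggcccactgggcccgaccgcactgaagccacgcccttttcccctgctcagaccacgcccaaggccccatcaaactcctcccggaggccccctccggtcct

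**Figure D2:**
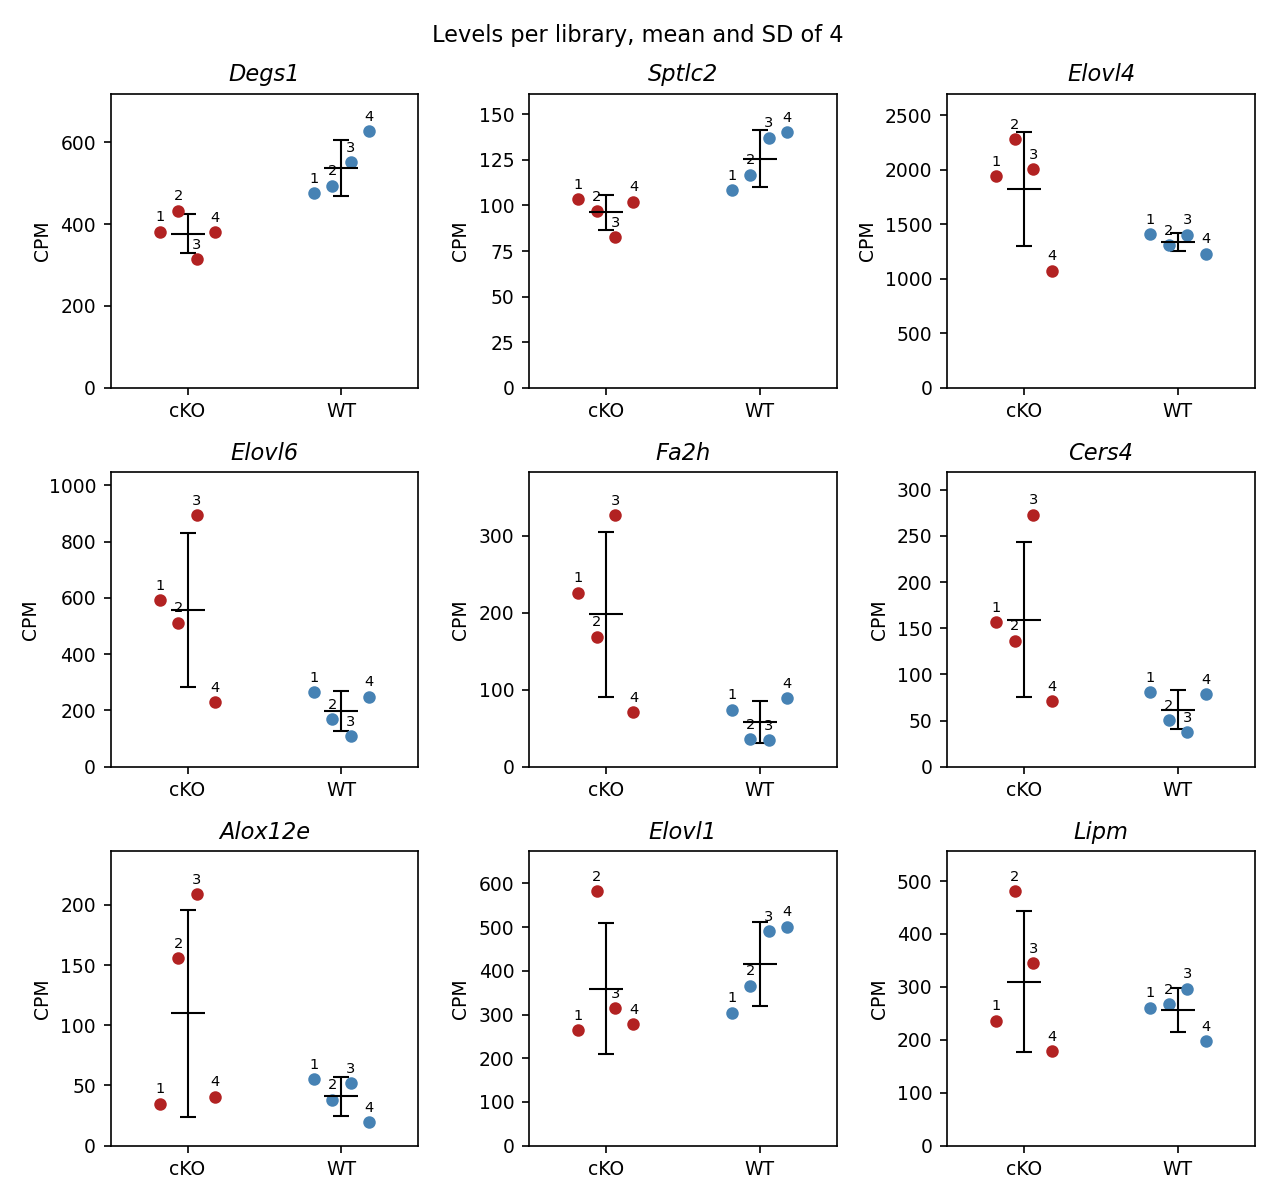
Level in CPM (y axis, from 0) of 9 genes in cKO (red, left) and WT (blue, right) libraries, with the replicate number at each point, a horizontal bar for the mean of 4 and whiskers for the SD. Degs1 and Sptlc2 do not overlap between genotypes, while Elovl6, Fa2h and Cers4 are high in cKO replicates 1 to 3 and within the WT range in cKO replicate 4.

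The other genes of fatty acid handling and N-acylation stood on either side of WT. Slc27a4, a fatty acid transport protein with acyl-CoA synthetase activity, stood at 323, 374, 383 and 179 CPM in cKO replicates 1 to 4, against 217, 241, 239 and 247 CPM in WT replicates 1 to 4. It was above the WT range in cKO replicates 1 to 3 and below it in cKO replicate 4 (0.41 ± 0.21 (SE) as log2 fold change, edgeR adjusted p = 0.331). Cyp4f39, a cytochrome P450 for the omega-hydroxylation of ultra-long fatty acids, ran from 117 to 173 CPM in cKO and 148 to 219 CPM in WT, with a log2 fold change of -0.40 ± 0.16 (SE, edgeR adjusted p = 0.221). Cers3, the synthase that joins ultra-long acyl chains to the sphingoid base, stood at 228, 364, 195 and 214 CPM in cKO replicates 1 to 4, against 249, 269.6, 385 and 342 CPM in WT replicates 1 to 4. The Cers3 genotypes overlapped, since cKO replicate 2 was near the highest WT library while the other 3 cKO libraries lay below every WT library (-0.31 ± 0.22 (SE) as log2 fold change, edgeR adjusted p = 0.479).

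Acylceramide formation showed small differences. Abhd5, the coactivator of the acyltransferase Pnpla1, stood at 197, 251, 203 and 162 CPM in cKO replicates 1 to 4, against 231, 236, 275 and 236 CPM in WT replicates 1 to 4. Its cKO replicates 1, 3 and 4 were below every WT library and cKO replicate 2 was within the WT range (-0.27 ± 0.14 (SE) as log2 fold change, edgeR adjusted p = 0.33). Pnpla1, which transfers linoleate to omega-hydroxyceramide, ran from 66.0 to 135 CPM in cKO and 76.0 to 128 CPM in WT (-0.022 ± 0.23 (SE) as log2 fold change, edgeR adjusted p = 0.975). Nipal4, an ichthyosis gene for a membrane protein of granular cells, ran from 80.5 to 149 CPM in cKO and 101 to 139 CPM in WT (-0.17 ± 0.19 (SE) as log2 fold change, edgeR adjusted p = 0.671). The 95% intervals of the log2 fold change were -0.57 to 0.039 for Abhd5, -0.54 to 0.50 for Pnpla1 and -0.59 to 0.25 for Nipal4.

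In the oxidation step the 3 lipoxygenases did not share a pattern. Alox12b, which oxygenates the linoleate of acylceramide, ran from 113 to 208 CPM in cKO and 111 to 235 CPM in WT (-0.22 ± 0.27 (SE) as log2 fold change, edgeR adjusted p = 0.702). Aloxe3, which converts its product further, ran from 37.1 to 87.6 CPM in cKO and 33.2 to 65.5 CPM in WT (0.37 ± 0.30 (SE) as log2 fold change, edgeR adjusted p = 0.551). Alox12b and Aloxe3 are next to each other among the protein-coding genes of chromosome 11 in the RefSeq annotation. Alox12e, an epidermal lipoxygenase of the mouse, stood at 34.7, 155, 209 and 40.7 CPM in cKO replicates 1 to 4, against 55.2, 38.2, 51.8 and 19.4 CPM in WT replicates 1 to 4. It was above the WT range in cKO replicates 2 and 3 and within it in cKO replicates 1 and 4, and the difference did not pass (1.42 ± 0.59 (SE) as log2 fold change, edgeR adjusted p = 0.236, 95% interval 0.095 to 2.74). Of the 10 granular and cornified markers, cKO replicate 2 was above the WT range in 8, cKO replicate 3 in 6, cKO replicate 1 in 3 and cKO replicate 4 in 0. The part of such cells in the level of Alox12e was not tested. Sdr9c7, a dehydrogenase that acts on the oxidised acylceramide, stood at 194, 329, 184 and 138 CPM in cKO replicates 1 to 4, against 195, 266, 329 and 233 CPM in WT replicates 1 to 4. Of these, cKO replicate 2 was level with the highest WT library, cKO replicate 1 level with the lowest and cKO replicates 3 and 4 below them all (-0.27 ± 0.26 (SE) as log2 fold change, edgeR adjusted p = 0.619).

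Genes of glucosylation, lamellar body transport and release overlapped between genotypes. Smpd1, the acid sphingomyelinase that frees ceramide from sphingomyelin, stood at 166, 312, 186 and 111 CPM in cKO replicates 1 to 4, against 140.1, 170.4, 181 and 152 CPM in WT replicates 1 to 4. Its cKO replicate 2 was the highest and cKO replicate 4 the lowest of the 8 (0.27 ± 0.27 (SE) as log2 fold change, edgeR adjusted p = 0.639), and the log2 fold change was -0.044 without cKO replicate 2. Abca12, the lipid transporter that loads lamellar bodies, ran from 288 to 476 CPM in cKO and 291 to 518 CPM in WT (-0.17 ± 0.21 (SE) as log2 fold change, edgeR adjusted p = 0.7), and Ugcg, the glucosylceramide synthase, from 136 to 208 CPM in cKO and 139.8 to 248 CPM in WT (-0.10 ± 0.19 (SE) as log2 fold change, edgeR adjusted p = 0.833).

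Ceramidases and acid lipases had cKO replicate 2 as the highest library in all 5 genes. Acer1, the alkaline ceramidase of differentiated keratinocytes, stood at 168, 299.8, 232 and 136 CPM in cKO replicates 1 to 4, against 214, 215, 195 and 164 CPM in WT replicates 1 to 4. The genotypes overlapped (0.084 ± 0.23 (SE) as log2 fold change, edgeR adjusted p = 0.886). Asah1, the acid ceramidase of lysosomes, stood at 49.6 ± 15.5 CPM in the cKO libraries, against 40.8 ± 9.82 CPM in the WT libraries (SD, n = 4 each), with a log2 fold change of 0.28 ± 0.24 (SE, edgeR adjusted p = 0.563). The lipases Lipk, Lipn and Lipm lie in a row among the protein-coding genes of chromosome 19, and all belong to the acid lipases of late epidermal differentiation. Lipm, the most abundant of them, stood at 236, 481, 344 and 178 CPM in cKO replicates 1 to 4, against 261, 267, 297 and 198 CPM in WT replicates 1 to 4. Its cKO replicates 2 and 3 were above the WT range and cKO replicate 4 was below it (0.28 ± 0.28 (SE) as log2 fold change, edgeR adjusted p = 0.64). Without cKO replicate 2 the log2 fold change of Lipm was 0.00046. Lipk stood at 41.5 ± 18.1 CPM in the cKO libraries, against 28.6 ± 9.36 CPM in the WT libraries (0.53 ± 0.33 (SE) as log2 fold change, edgeR adjusted p = 0.421), and Lipn at 69.2 ± 20.8 CPM in the cKO libraries, against 74.9 ± 20.7 CPM in the WT libraries (-0.12 ± 0.24 (SE) as log2 fold change, edgeR adjusted p = 0.848).

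The cKO libraries were spread widely in these genes. cKO replicate 2 was above the WT range in 20 of the 29 genes (69.0%) and the highest of the 4 cKO libraries in 23 (79.3%), where it was above the WT range in 28.8% and highest in 28.1% of all tested genes. cKO replicate 4 was below the WT range in 18 of the 29 (62.1%, against 30.4% of all tested genes), the lowest cKO library in 22 (75.9%, against 26.5%) and above the WT range in none. cKO replicate 1 was above the WT range in 5 (17.2%, against 28.1% of all tested genes) and below it in 10 (34.5%, against 29.8%). cKO replicate 3 was above it in 10 (34.5%, against 32.0%) and below it in 8 (27.6%, against 30.5%), near the shares of all tested genes. The SD of log2 CPM was larger in cKO than in WT for 24 of the 29 genes (82.8%, against 69.7% of all tested genes), with medians of 0.43 in cKO and 0.32 in WT. Over all tested genes the medians were 0.28 in cKO and 0.19 in WT. WT libraries also differed, with WT replicate 3 highest of the 4 in 17 genes (58.6%, against 26.1% of all tested genes) and WT replicate 1 lowest in 18 (62.1%, against 21%). These positions are descriptions, since the 29 genes are not independent of each other.

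**Figure D3:**
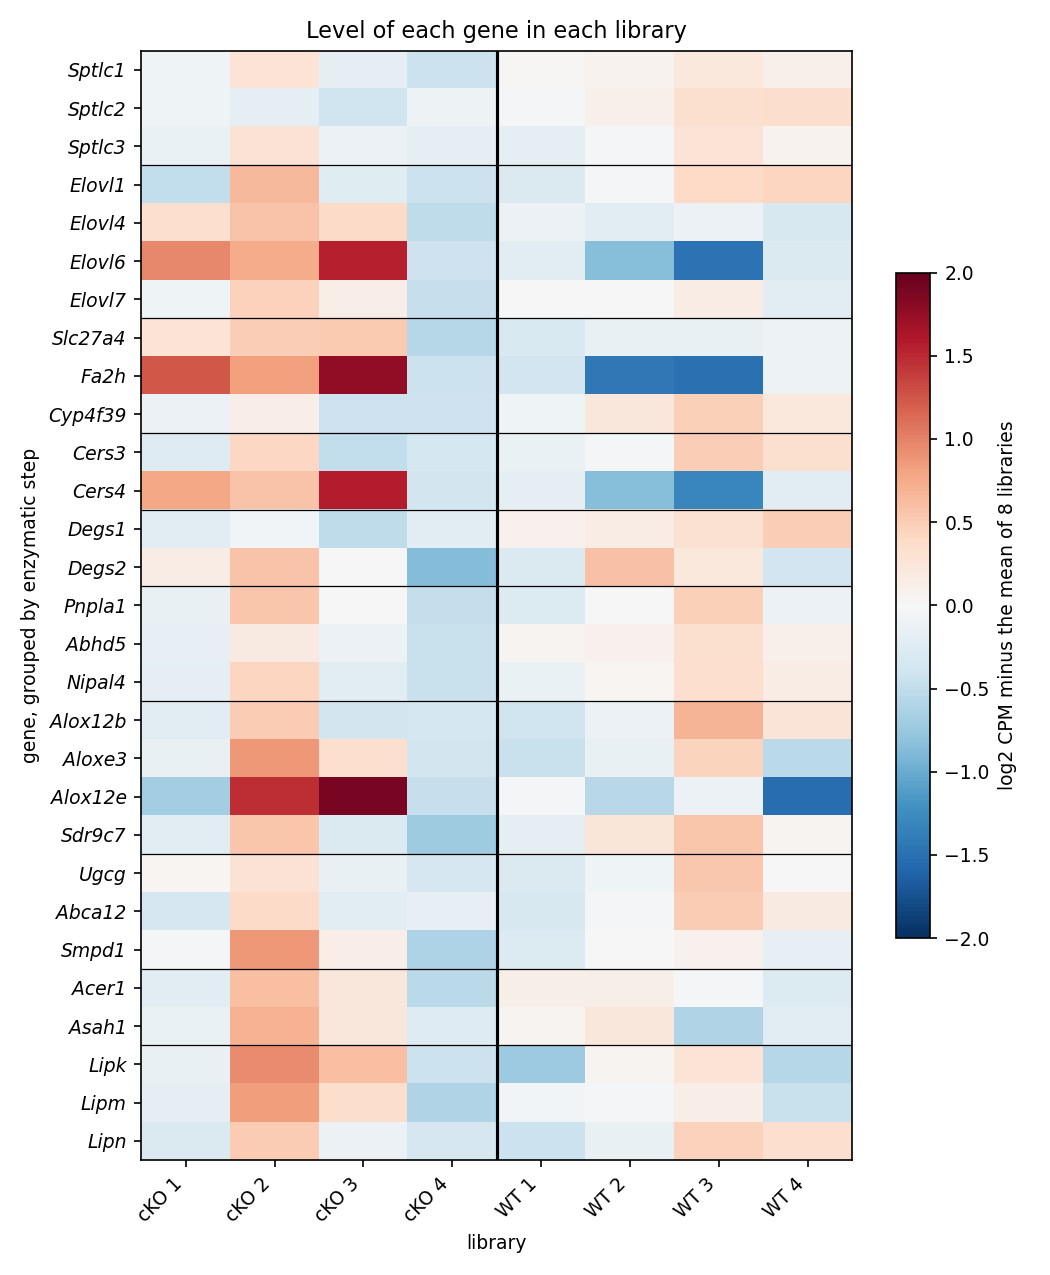
Level of the 29 genes (rows, grouped by enzymatic step) in the 4 cKO and 4 WT libraries (columns), as log2 CPM minus the mean of the 8 libraries, in red above and blue below that mean. cKO replicate 2 is red in most rows and cKO replicate 4 blue in most. Sptlc2 and Degs1 are the rows in which the genotypes separate (6.90% of the 29, against 11.1% of all tested genes).

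Averaged over members, log2 CPM centred on the mean of the 8 libraries was -0.029, 0.53, 0.20 and -0.42 in cKO replicates 1 to 4, against -0.19, -0.095, 0.081 and -0.084 in WT replicates 1 to 4. The cKO libraries thus held both the highest and the lowest of the 8 averages. Fatty acid activation and hydroxylation averaged 0.47, 0.48, 0.63 and -0.48 in cKO replicates 1 to 4, against -0.25, -0.45, -0.39 and -0.0015 in WT replicates 1 to 4. Lipid oxidation averaged -0.32, 0.85, 0.39 and -0.47 in cKO replicates 1 to 4, against -0.27, -0.14, 0.39 and -0.44 in WT replicates 1 to 4. No step kept its 4 cKO libraries on 1 side of its WT libraries.

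Keratinocyte differentiation markers moved with this order within cKO, but not fully within WT. In WT the average over members was lowest in replicate 1, and the marker sum given next was lowest in replicate 4. Both were highest in WT replicate 3. The 10 granular and cornified markers summed to 56585, 77038, 58838 and 38859.5 CPM in cKO replicates 1 to 4, against 56127, 59901, 72749 and 44059 CPM in WT replicates 1 to 4. Most of that sum is Krt10 and Krt1. Krt10 ran from 17493 to 33451 CPM in cKO and 18984 to 32428 CPM in WT. Krt1 ran from 17142 to 28220 CPM in cKO and 21202 to 31447 CPM in WT. In all 10 markers the highest of the cKO libraries was cKO replicate 2 and the lowest cKO replicate 4. Flg, which encodes filaggrin, ran from 908 to 3373 CPM in cKO and 703 to 2143 CPM in WT, and Lor, which encodes loricrin, from 834 to 3484 CPM in cKO and 392 to 1514 CPM in WT. None of the 9 tested markers was called, 7 had a positive fold change and Casp14 and Krt1 a negative one (-0.30 and -0.22), and none was at 0 in every library. The 7 basal markers summed to 16592 to 28153 CPM in cKO and 24249 to 36248 CPM in WT. Of these 7, only Krt15 had a positive fold change (0.64), and none was called. The lowest were Itga6 (-0.69, edgeR adjusted p = 0.109) and Krt14 (-0.58, edgeR adjusted p = 0.246). The part of differentiation state or of the share of upper-layer cells in the barrier lipid values was not tested.

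**Figure D4:**
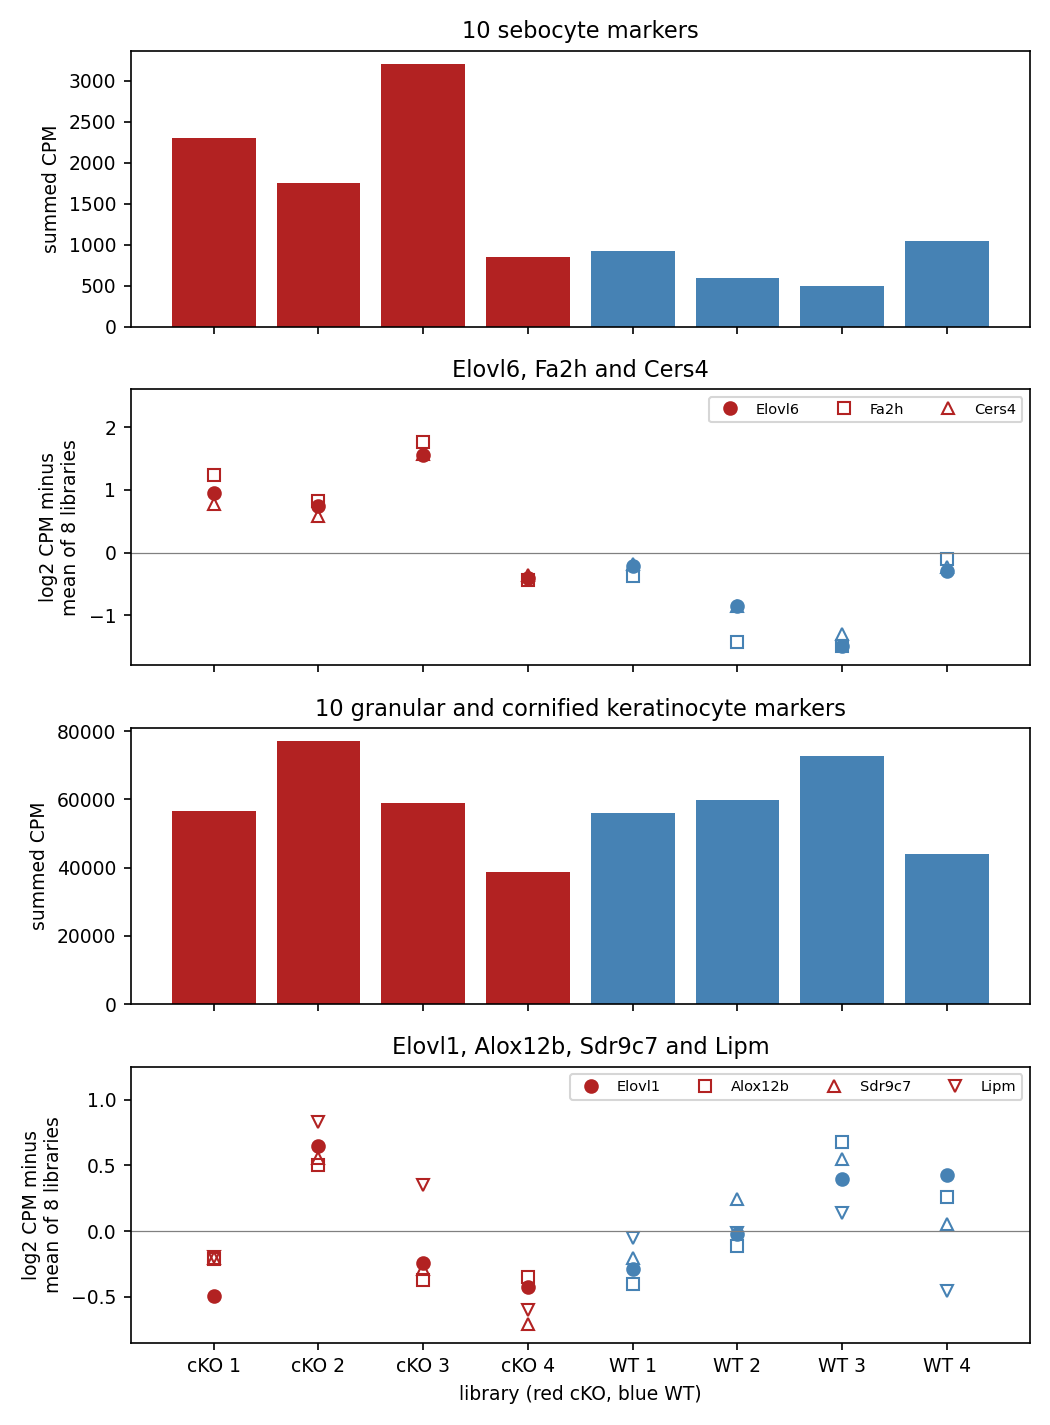
Per library (x axis, cKO left in red, WT right in blue), from the top: summed CPM of 10 sebocyte markers, centred log2 CPM of Elovl6, Fa2h and Cers4, summed CPM of 10 granular and cornified markers, and centred log2 CPM of Elovl1, Alox12b, Sdr9c7 and Lipm. The last 4 genes were picked for display and do not stand for all 29. Over the 29, the highest cKO library was replicate 2 in 23, replicate 3 in 5 and replicate 1 in 1. Elovl6, Fa2h and Cers4 are high where the sebocyte sum is high, and cKO replicate 2 has the highest granular sum and cKO replicate 4 the lowest. The sebocyte sum is mostly Scd1, and cKO replicate 4 was above every WT library in 6 of the 10 sebocyte markers. The granular sum is mostly Krt10 and Krt1.

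Ratios between genes of the same step, taken within a library, were compared as log2 values with no test. The ratio of Cers4 to Cers3 was -0.77 ± 0.95 in cKO and -2.38 ± 0.74 in WT (SD, n = 4 each), and every cKO library was above every WT library. The ratio of Aloxe3 to Alox12b was -1.33 ± 0.33 in cKO and -1.88 ± 0.36 in WT, also without overlap. Both separations were narrow. For Cers4 to Cers3, cKO replicate 4 was at -1.591 and WT replicate 1 at -1.621. For Aloxe3 to Alox12b, cKO replicate 4 was at -1.630 and WT replicate 2 at -1.639. The share of such ratios over all genes was not examined. The remaining ratios overlapped, with Elovl4 to Elovl1 at 2.37 ± 0.48 in cKO and 1.71 ± 0.40 in WT, Sptlc3 to Sptlc2 at -0.25 ± 0.26 in cKO and -0.56 ± 0.10 in WT, Degs2 to Degs1 at -3.0 ± 0.58 in cKO and -3.45 ± 0.55 in WT and Acer1 to Asah1 at 2.06 ± 0.12 in cKO and 2.30 ± 0.31 in WT. Because each ratio uses 2 genes, it shows unequal levels and not which gene differed.

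Of 60 further genes of ceramide, sphingolipid and very-long-chain fatty acid metabolism, 57 were tested and 2 were called, 1 in each direction, which is 3.51% against the 1.32% of all tested genes. Aldh3a2, the fatty aldehyde dehydrogenase lost in Sjögren-Larsson syndrome in humans, rose in cKO, with 30.3, 36.9, 46.3 and 39.8 CPM in cKO replicates 1 to 4, against 23.2, 23.5, 17.9 and 15.1 CPM in WT replicates 1 to 4 (0.94 ± 0.18 (SE) as log2 fold change, edgeR adjusted p = 0.0388). Hacd1, a dehydratase of the elongation cycle best known from muscle, fell at low levels, with 1.82, 1.62, 2.22 and 2.47 CPM in cKO replicates 1 to 4, against 3.93, 5.34, 5.19 and 8.40 CPM in WT replicates 1 to 4 (-1.49 ± 0.27 (SE) as log2 fold change, edgeR adjusted p = 0.0362). Both calls were lost without any 1 of several libraries. Aldh3a2 was called without cKO replicate 2 and lost its call without any of the other 7, at adjusted p of 0.0569 to 0.108. Hacd1 was called without cKO replicate 2 or 4 and lost its call without any of the other 6, at 0.0595 to 0.103. Hacd1 also missed the threshold with limma-voom (adjusted p = 0.0513), and Aldh3a2 with limma on log2(FPKM + 1) (adjusted p = 0.0545) and on log2(FPKM + 0.1) (adjusted p = 0.0614). On log2(FPKM + 1) without a filter, limma called neither (adjusted p = 0.123 for Hacd1 and 0.134 for Aldh3a2). Of the 57, 36 had a positive fold change with a median of 0.19, against 0.011 over all tested genes.

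Among the wider pathway genes that did not pass, those with the smallest p on the higher side were Acer3, Sgms2 and Elovl3. Acer3, another alkaline ceramidase, stood at 42.0 ± 4.84 CPM in the cKO libraries, against 28.8 ± 4.00 CPM in the WT libraries (0.54 ± 0.13 (SE) as log2 fold change, edgeR adjusted p = 0.0652). Sgms2, a sphingomyelin synthase, stood at 6.92 ± 2.57 CPM in the cKO libraries, against 3.37 ± 0.565 CPM in the WT libraries (1.04 ± 0.27 (SE) as log2 fold change, edgeR adjusted p = 0.0833), and neither gene overlapped between genotypes. Of the 57 tested wider pathway genes 14.0% did not overlap, against 11.1% of all tested genes. Elovl3, an elongase of sebaceous glands that is also among the sebocyte markers, stood at 195, 110.2, 182 and 50.7 CPM in cKO replicates 1 to 4, against 48.0, 27.3, 23.2 and 62.8 CPM in WT replicates 1 to 4. As for Elovl6, cKO replicate 4 was within the WT range (1.74 ± 0.45 (SE) as log2 fold change, edgeR adjusted p = 0.0844). On the lower side were Hacd4, a dehydratase of the elongation cycle (-1.29 ± 0.44 (SE) as log2 fold change, edgeR adjusted p = 0.162), Tgm1, the transglutaminase of keratinocytes (-0.68 ± 0.24 (SE) as log2 fold change, edgeR adjusted p = 0.186), and Sult2b1, the cholesterol sulfotransferase of epidermis (-0.46 ± 0.21 (SE) as log2 fold change, edgeR adjusted p = 0.274). Hacd4 also did not overlap, at low levels of 0.333 to 1.33 CPM in cKO and 1.45 to 3.32 CPM in WT.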

How the data were processed

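Total RNA of 8 epidermal samples was sequenced, 4 cKO and 4 WT, grouped by title. The authors deposited raw counts for each gene symbol, and FPKM for the same genes. HISAT2 and HTSeq are named in the submitters' processing notes. Versions, genome build, annotation and strand setting: not given in the sources used here. For 20863 of 20863 genes with counts in at least 2 libraries, FPKM implied 1 gene length within a relative tolerance of 1e-04, so both tables hold the same reads. FPKM was used to compare levels between genes and in alternative tests.

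Genes were filtered with filterByExpr, scaled with TMM and tested with the quasi-likelihood test of edgeR 4.0.16 (R 4.3.3) without covariates, with Benjamini-Hochberg adjustment across every gene tested. Standard errors and 95% intervals follow from the F statistic. Exact permutation tests were two-sided. The test was checked on simulated counts, with 100 genes changed 2-fold and 100 changed 4-fold, drawn from all tested genes. It called 52% of the first and 85% of the second, with 5 false calls. Alternatives were DESeq2 1.42.0, limma-voom and limma 3.58.1 on log2(FPKM + 1) and log2(FPKM + 0.1), other scalings and filters, a replicate block and leaving out each library. P-values assume that the libraries are separate mice, as the design text implies. No library pair of a genotype agreed within sampling noise (lowest chi-square per degree of freedom 47.9).

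The 29 genes, the wider pathway list and the markers were chosen with earlier results of these data known. All members are named. Values in each library are given where the genotypes do not overlap and for the most abundant member by FPKM of each step, and other members given so were chosen after their values were seen. Called pathway genes are named with the 3 of smallest p in each direction that were not called. The listed genes Cers1, Adipoq and Lep were not analysed here.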

Additional observations from a re-analysis of the deposited data

Results flagged for a closer look

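4 single values lay apart from the other 3 libraries of their genotype, out of 58 groups of 4 values examined (29 genes in 2 genotypes), where chance flags about 1 group in 20. 3 of the 4 were in cKO replicate 2. Elovl1 stood there at 582 CPM, against 264 to 314 CPM in the other cKO libraries. Alox12b stood at 208 CPM, against 113 to 127 CPM, and Sptlc3 at 101 CPM, against 73.4 to 76.4 CPM. With all libraries the log2 fold changes were -0.21 for Elovl1, -0.22 for Alox12b and -0.069 for Sptlc3. With each library left out in turn they ran from -0.53 to -0.085 for Elovl1, -0.46 to -0.0034 for Alox12b and -0.17 to 0.015 for Sptlc3, and each was lowest without cKO replicate 2. The fourth value was Abhd5 in WT replicate 3, at 275 CPM against 231 to 236 CPM in the other WT libraries. Omitting WT replicate 3 gave Abhd5 a log2 fold change of -0.21, against -0.27 with all libraries.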

How the results depend on the processing

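Of the 29 genes, none was called with edgeR under RLE factors, library-size scaling, no count filter, a minimum of 1 CPM in 4 libraries, limma-voom, limma on FPKM or a replicate block, and DESeq2 called 5. Leaving out 1 library gave 0 to 5 calls, the 5 without cKO replicate 4. Over all genes, 185 were called, 1208 by DESeq2, 349 without the count filter and 24 by limma on unfiltered log2(FPKM + 1), and 8 to 506 with 1 library left out (8 without WT replicate 3, 506 without cKO replicate 2). Of the wider pathway genes 2 were called, 9 by DESeq2, 1 by limma-voom, 1 by limma on log2(FPKM + 1), 1 on log2(FPKM + 0.1), 0 on unfiltered log2(FPKM + 1), and 0 to 3 with 1 library left out. The cause was not tested. The deviations of same-numbered libraries correlated at -0.10, 0.13, 0.10 and 0.19 for numbers 1 to 4. As number 1 was not above 0.1, the numbers were not taken to pair the libraries. Of the cKO libraries, replicates 2 and 4 correlated best with their own number, replicate 1 with WT replicate 4 and replicate 3 with WT replicate 1. The replicate block gave 216 calls over all genes, 0 among the 29 and 3 among the wider pathway genes. The block's fit kept Hacd1 and lost Aldh3a2, which had an adjusted p of 0.0731. With library-size scaling Degs2 was at 0.010 and Pnpla1 at 0.027, and on FPKM Pnpla1 was at 0.018 with a pseudocount of 1, 0.019 with 0.1 and 0.018 unfiltered. With 1 library left out, log2 fold changes of the genes whose sign turned ran from -0.17 to 0.015 for Sptlc3, from -0.090 to 0.20 for Elovl7, from -0.24 to 0.19 for Degs2, from -0.23 to 0.15 for Pnpla1, from -0.20 to 0.091 for Ugcg, from -0.044 to 0.46 for Smpd1, from -0.13 to 0.24 for Acer1 and from -0.33 to 0.025 for Lipn. With 4 libraries per genotype and a median standard error of 0.23 over the 29 genes, small differences are not detectable here. Larger ones can be missed too, since 52% of simulated 2-fold changes were called.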
